A study of Paeonia lutea x Paeonia suffruticosa with 9 samples.

Results

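In buds of the tree peony 'High Noon', 3 of the 137758 transcripts in the deposited tables are followed here as AP1 and FUL. They were taken by identifier from the study's list of 26 floral transcripts, in which 2 transcripts are matched to AP1 and 1 to FUL. Other transcripts of these genes were not searched for, so summed AP1 values cover the 2 listed AP1 transcripts only. The AP1 transcripts are i1_LQ_HNbud_c128329/f1p0/1130 and i1_LQ_HNbud_c51214/f1p0/1256, and the FUL transcript is i1_LQ_HNbud_c91035/f1p1/1218, called AP1 c128329, AP1 c51214 and FUL c91035 from here on. The study drew that list as differentially expressed in these same libraries, so a call on a listed transcript is not independent evidence of its direction.

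'High Noon' is a hybrid of Paeonia lutea and Paeonia suffruticosa, and all samples were floral buds of plants that the labels give as 5 years old. By the labels the groups differ in the stage of the bud alone: stage I (vegetative meristem, libraries S1_1 to S1_3), stage II (floral meristem, S2_1 to S2_3) and stage III (floral organ, S3_1 to S3_3). A figure legend of the study describes stage II as the stage of floral organ differentiation, and stage III as that of formed organs. Poly(A) RNA of each bud sample was sequenced as paired Illumina reads. The study gives RNA quality values for each library on its own and refers to biological duplication. Neither it nor the labels say whether the 3 libraries of a stage came from separate plants. The p-values therefore measure only the spread between these samples, which may not be that between plants.

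AP1 (APETALA1) and FUL (FRUITFULL) are MADS-box transcription factors of one subfamily. In Arabidopsis, AP1 gives a young primordium its identity as a flower and later acts in sepals and petals. Its transcription there is switched on by LFY and by FT acting with the bZIP factor FD. FUL is switched on in the Arabidopsis shoot apex at the floral transition, shares part of the meristem role of AP1, and acts later in the carpel and fruit. In a perennial such as the tree peony, the buds that flower in spring are laid down in the preceding season. The study describes 'High Noon' as reblooming irregularly, and the season of sampling is not given in the sources used here. The stages sampled run from vegetative to floral buds.

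All 3 transcripts are short and rest on thin long-read evidence. Their identifiers give lengths of 1130, 1256 and 1218 bp, against a median of 1654 bp over all transcripts. Each is a low-quality consensus of 1 full-length long read, as are 84.6% of all transcripts. RSEM, the authors' counting tool, divides a fragment that maps to several transcripts among them. The counts were not whole numbers (tolerance 0.005) in 8 of 9 libraries for AP1 c128329, in 7 for AP1 c51214 and in 5 for FUL c91035. They therefore share fragments with similar transcripts, as 87.7% of the 97447 transcripts with reads did in at least 1 library, and the division between the 2 AP1 copies is an estimate. A copy here means a listed transcript matched to the same Arabidopsis gene. No sequence of the transcripts was used here, so whether copies are separate genes, alleles or forms of the same gene is not known.

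The libraries held 20065002 to 25195520 counted fragments. Library S1_3 stood apart from its replicates: the r2 of log2(FPKM + 1) across transcripts was 0.819 to 0.833 between S1_3 and the other stage I libraries, and 0.938 to 0.962 for the other 7 pairs of replicates. FPKM is the fragment count scaled by transcript length and library size, so it can be compared between transcripts. Results of the AP1 and FUL transcripts that rest on S1_3 are given with and without it. For the other listed transcripts, fits without S1_3 are not given. PI c9787, a petal and stamen identity transcript, had 2 reads or fewer in each stage I library and 310 to 748 reads in each stage III library. In stage II it had 59.5 reads in S2_1 and 6 and 7 in S2_2 and S2_3. It comes from the same list of differentially expressed transcripts, so it is no independent check of the stage labels.

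AP1 c128329 was the most abundant of the transcripts in stages II and III. Its FPKM was 0.49, 0.67 and 0 in S1_1, S1_2 and S1_3. In stage II it was 6.34, 3.85 and 3.29 in S2_1, S2_2 and S2_3, and in stage III it was 15, 7.18 and 11.96 in S3_1, S3_2 and S3_3. Each stage lay wholly above the one before it, and S1_3 was the single library without a read of this transcript. The means of the stages were 0.387 ± 0.347, 4.49 ± 1.62 and 11.4 ± 3.94 (SD, n = 3). In rank, 31.9% of the transcripts with reads lay below it in stage I and 84.6% in stage III.

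The 0 in S1_3 rests on 20996594 fragments, which allow up to 3 reads or an FPKM of 0.168, below the values of 0.49 and 0.67 in the other stage I libraries. These had 8.65 and 11.31 reads of AP1 c128329. Of the 919 transcripts with 8 to 12 reads in both S1_1 and S1_2, a window set after the values were seen, 11.0% had no read in S1_3. The same share was 5.56% for S1_1 and 5.60% for S1_2, each against the other 2 libraries. LFY c105452 was also low in S1_3, with an FPKM of 0.05 against 1.95 and 2.52 in S1_1 and S1_2. AP1 c51214 and FUL c91035 were not low in S1_3. Whether the difference of S1_3 from its replicates has a part in the value of AP1 c128329 was not tested.

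AP1 c51214, the second AP1 copy, was as abundant as the first in S1_1 and S1_2 and less abundant later. Its FPKM was 0.46, 0.66 and 0.50 in stage I, 2.35, 0.87 and 0.87 in stage II, and 4.19, 3.17 and 6.90 in stage III, each in the order of the library numbers. S2_1 was well above the other stage II libraries, which lay just above stage I, and the stages still did not overlap. The means were 0.54 ± 0.106, 1.36 ± 0.854 and 4.75 ± 1.93 in stages I, II and III (SD, n = 3).

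FUL c91035 had few reads in stage I, with 1, 2 and 4 reads in S1_1, S1_2 and S1_3. Its FPKM was 0.05, 0.11 and 0.20 there, 3.15, 2.08 and 1.90 in stage II, and 4.12, 3.00 and 6.02 in stage III. Stage II lay wholly above stage I, but stages II and III overlapped, since S2_1 was above S3_2. The means were 0.12 ± 0.0755, 2.38 ± 0.676 and 4.38 ± 1.53 in stages I, II and III (SD, n = 3). The 7 reads of stage I have a 95% Poisson interval of 2.81 to 14.4 reads, which covers counting error only, because reads from PCR are not independent molecules.

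In stage III, AP1 c128329 was above the others, its lowest library (7.18) being higher than the highest of AP1 c51214 (6.90) and of FUL c91035 (6.02), while these overlapped each other. In stage II the order was AP1 c128329, FUL c91035 and AP1 c51214 in every library, though the ranges of the last pair overlapped. In stage I no AP1 order could be read. Summed FPKM of the AP1 copies was 0.927 ± 0.415, 5.86 ± 2.47 and 16.1 ± 5.01 in stages I, II and III (SD, n = 3).

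**Figure D1:**
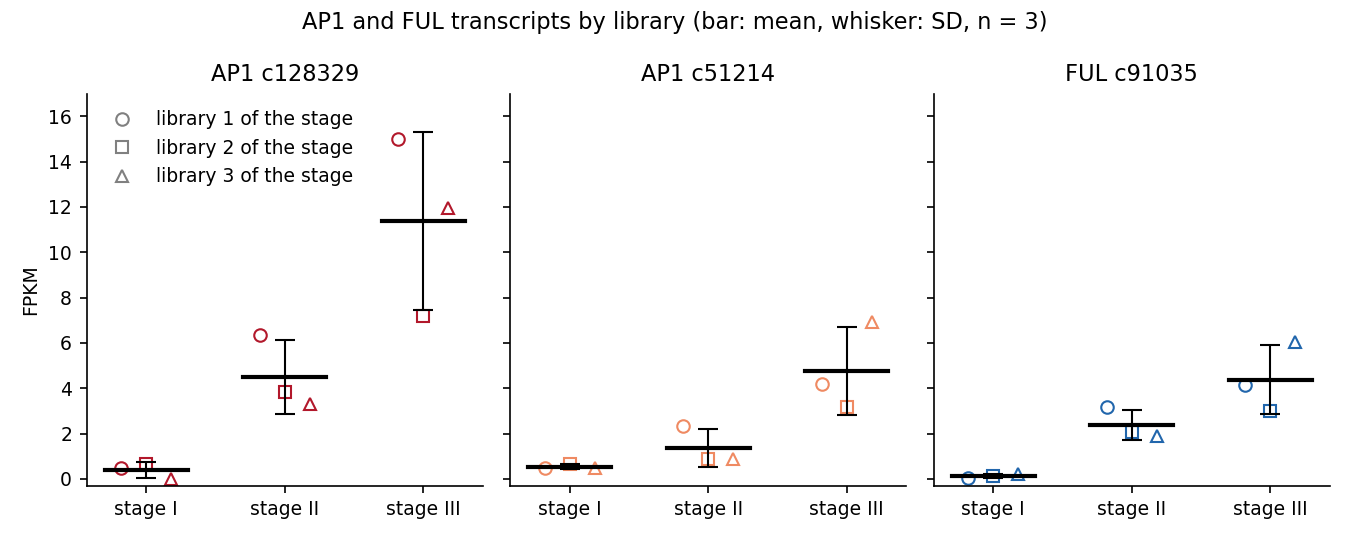
FPKM (vertical axis) of AP1 c128329, AP1 c51214 and FUL c91035 in the 3 libraries of each stage, with points for libraries and bars for the mean and SD (n = 3). AP1 c128329 lies at 7.18 to 15 in stage III, above the other transcripts, and FUL c91035 lies at 0.20 or below in stage I.

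From stage I to stage II, the transition from vegetative to floral meristem, AP1 c128329 and FUL c91035 rose and AP1 c51214 did not pass the test. A call was a fold change over 2 with a Benjamini-Hochberg q value under 0.05 in edgeR's quasi-likelihood test over all transcripts. FUL c91035 rose by a log2 fold change of 4.10 (SE 0.57, q = 0.00902) and AP1 c128329 by 3.38 (SE 0.93, q = 0.0477). AP1 c51214 had a log2 fold change of 1.16 (SE 0.53, q = 0.163), although its stages did not overlap. Thus 2 of 3 transcripts were called higher, where 9.49% of the 64662 transcripts tested were, and 3 of 3 did not overlap, where 29.1% of all were higher in every stage II library. The summed reads of FUL c91035, scaled by normalised library size, were 18.5 times as high in stage II (157 reads) as in stage I (7 reads), with a 95% interval of 8.79 to 46.9 from counting error alone.

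The call for AP1 c128329 was close to the threshold. It was lost on leaving out any of S1_1, S1_2, S2_1, S2_2 and S2_3 (q = 0.0860 to 0.137), and with no filter on low counts (q = 0.0567). Without S1_3 the log2 fold change was 2.80 and the q value 0.00707. The call for FUL c91035 held on leaving out each library in turn (log2 fold change 3.75 to 4.68, q = 0.00460 to 0.0482).

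From stage II to stage III, by which floral organs had formed, 0 of 3 transcripts were called in edgeR. Of the 64971 transcripts tested, 0.734% were called higher. All 3 AP1 and FUL transcripts had an unadjusted p under 0.05, as had 7.95% of all transcripts in this direction. DESeq2 called both AP1 copies, where it called 1.59% of 53940 higher. In edgeR the log2 fold changes were 1.35 for AP1 c128329 (SE 0.33, q = 0.0956), 1.82 for AP1 c51214 (SE 0.47, q = 0.106) and 0.90 for FUL c91035 (SE 0.32, q = 0.215). DESeq2 gave q values of 0.00595, 0.00934 and 0.183. In 2 of 3 transcripts, the AP1 copies, every stage III library was above every stage II library, as in 11.5% of all transcripts tested. Over the alternatives, the q value of FUL c91035 was 0.183 to 0.674.

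From stage I to stage III all 3 transcripts rose. The log2 fold change was 5.01 for FUL c91035 (SE 0.58, q = 0.00379), 4.78 for AP1 c128329 (SE 0.89, q = 0.0124) and 3.01 for AP1 c51214 (SE 0.43, q = 0.00592). These were 3 of 3, where 11.9% of 65124 transcripts were called higher, and 3 of 3 did not overlap, where 31.2% of all were higher in every stage III library. By summed reads, FUL c91035 was 34.2 times as high in stage III (264 reads) as in stage I (7 reads), with an interval of 16.4 to 86.0. AP1 c128329 lost the call without S3_1 (q = 0.0572) or S3_3 (q = 0.0570), and its log2 fold change was 4.15 without S1_3. The other 2 transcripts kept theirs without each library. In whole buds, more cells with a transcript and more RNA per cell cannot be told apart.

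The study's criterion was a q value under 0.001 in a count model of the DESeq family. In edgeR that threshold called 0 of 3 transcripts in each comparison, and 0.0%, 0.00616% and 0.0% of all transcripts as higher from stage I to II, II to III and I to III. The unadjusted p was under 0.05 for 2, 3 and 3 of the transcripts, and for 18.7%, 7.95% and 21.0% of all with a higher level. DESeq2 at that threshold, an alternative added after the data were seen, called 2 of 3 from stage I to II, 0 of 3 from stage II to III and 3 of 3 from stage I to III. It called 5.68%, 0.938% and 6.71% of all transcripts it tested as higher.

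**Figure D2:**
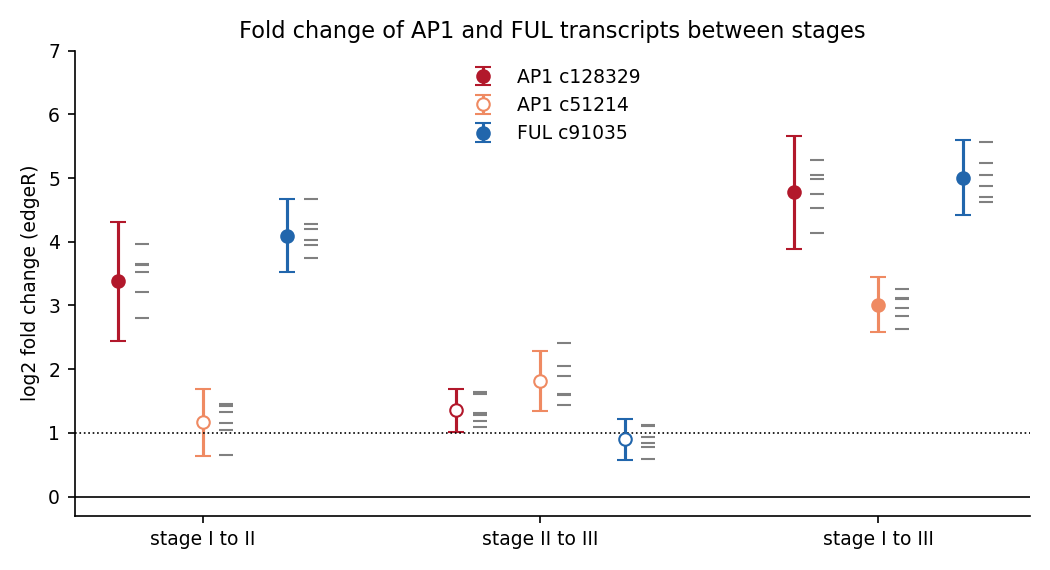
Log2 fold changes in edgeR (with SE) of the 3 transcripts in the 3 comparisons of stages, 3 libraries a stage. Filled points were called (fold change over 2, dotted line, with q under 0.05), open points were not, and grey ticks are the values on leaving out 1 library each; all values are above 0.

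The timing of the rise was followed as the share reached at stage II. On FPKM, AP1 c51214 had reached 19.5% (SE 12.8) of its difference between stages I and III at stage II, AP1 c128329 37.4% (SE 11.6) and FUL c91035 53.0% (SE 14.3). Taken as ranges of 1 SE, AP1 c128329 overlapped both others, AP1 c51214 and FUL c91035 did not overlap, and the differences between transcripts were not tested. The shares depend on the scale: on log2(FPKM + 1) they were 63.1% for AP1 c128329, 30.4% for AP1 c51214 and 70.7% for FUL c91035, and on log2(FPKM + 0.1) they were 73.4%, 37.0% and 80.9%. Over the 7758 transcripts called higher from stage I to III the median was 84.3%, with quartiles of 59.8% and 113.5%. Of them, 4.11% lay below AP1 c51214, 10.4% below AP1 c128329 and 19.6% below FUL c91035, so on FPKM all 3 transcripts lay in the later part of this group. The position is a description and was not tested.

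S2_1 set much of the share at stage II. Taken library by library, it was 54.2%, 31.5% and 26.4% for AP1 c128329 in S2_1, S2_2 and S2_3. For AP1 c51214 it was 43.0%, 7.83% and 7.83%, and for FUL c91035 71.1%, 46.0% and 41.8%. S2_1 was thus the highest of its stage for each transcript. Without S2_1 the share fell to 7.83% for AP1 c51214, 29.0% for AP1 c128329 and 43.9% for FUL c91035. Leaving out a stage III library raised it to as much as 26.2% for AP1 c51214 (without S3_3), 44.7% for AP1 c128329 (without S3_1) and 65.6% for FUL c91035 (without S3_3).

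**Figure D3:**
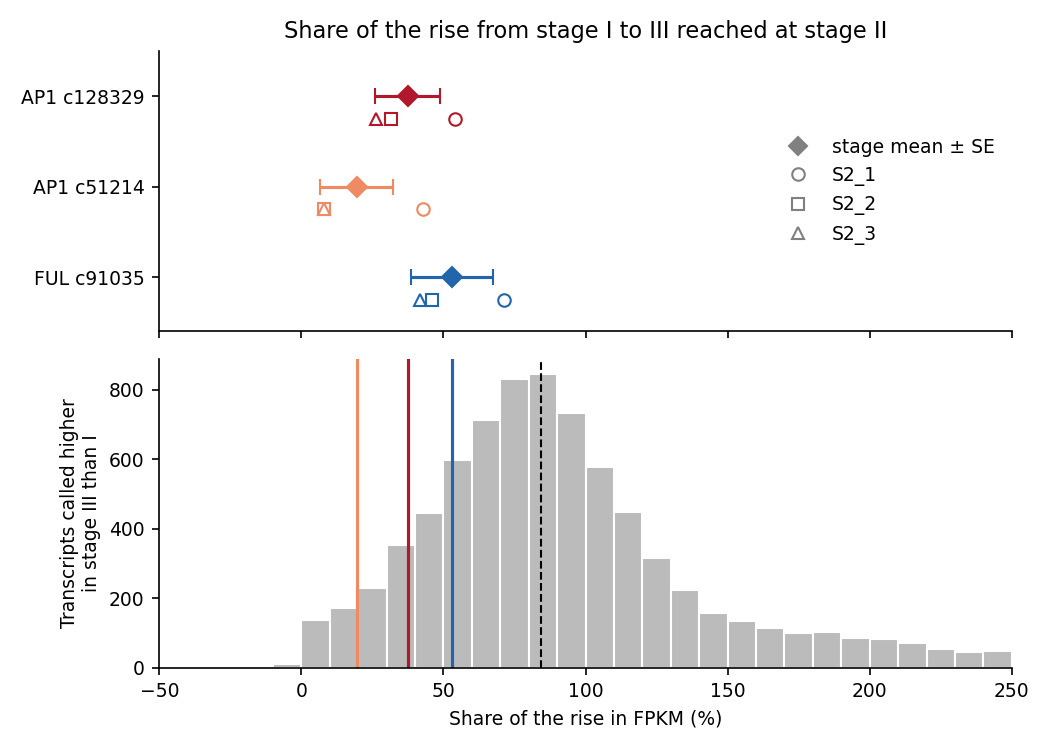
Share of the difference between stages I and III reached at stage II, in percent of FPKM, for the 3 transcripts (upper panel; diamonds, mean with SE; open symbols, the stage II libraries) and for 7758 transcripts called higher from stage I to III (lower panel, number of transcripts; dashed line, median of 84.3%). The transcripts lie at 19.5%, 37.4% and 53.0%, below that median; 128 of the 7758 lie outside the axis, which runs from -50% to 250%.

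The difference between the steps was also tested on the log2 scale, where it asks whether the first fold change (stage I to II) was larger than the second (stage II to III). FUL c91035 had the larger first step, by 3.19 on the log2 scale (SE 0.73, q = 0.0426). The values were 2.02 for AP1 c128329 (SE 1.13, q = 0.322) and -0.66 for AP1 c51214 (SE 0.83, q = 0.676), neither of which passed. This is 1 of 3 transcripts, where 4.21% of 68174 passed in this direction. The call for FUL c91035 was lost on leaving out any library other than S1_3 (q = 0.0546 to 0.149), in limma on log2(FPKM + 1) (q = 0.172) and with no filter (q = 0.0534), and the difference stayed above 0 in each. In FPKM, by contrast, its steps were near even, with 53.0% of the difference reached at stage II.

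The proportion of the AP1 copies was followed as the share of summed AP1 FPKM that came from AP1 c51214. It was 48.4%, 49.6% and 100% in S1_1, S1_2 and S1_3, then 27.0%, 18.4% and 20.9% in stage II, and 21.8%, 30.6% and 36.6% in stage III. Both copies were thus close to even in S1_1 and S1_2, and AP1 c128329 was the main copy in every stage II and III library. The means were 66.0% ± 29.4, 22.1% ± 4.43 and 29.7% ± 7.42 (SD, n = 3), and the stage I mean was 49.0% without S1_3. Stage I did not overlap stage II or III (exact two-sided permutation test, p = 0.1 each, BH 0.15), and stages II and III overlapped (p = 0.2, BH 0.2). With 3 against 3 libraries 0.1 is the smallest p the test allows.

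Few reads stand behind the stage I proportion. By reads, 9 of 18 came from AP1 c51214 in S1_1 (exact 95% interval 26.02% to 73.98%), 13 of 24 in S1_2 (32.8% to 74.4%) and 11 of 11 in S1_3 (71.5% to 100%). In the later libraries the share by reads was lowest in S2_2, at 21 of 100 (13.5% to 30.3%), and highest in S3_3, at 154 of 384 (35.2% to 45.2%). The shares in S2_2, S2_3 and S3_1 (21.0%, 22.97% and 24.4%) lay below the intervals of S1_1 and S1_2. Those in S3_2 (33.7%) and S3_3 (40.1%) lay within both, and that in S2_1 (30.1%) lay within the interval of S1_1 only. These intervals too cover counting error only.

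FUL c91035 was set against the summed AP1 copies in the same way. The ratio of FPKM was 0.0526, 0.0827 and 0.40 in S1_1, S1_2 and S1_3. It was 0.362, 0.441 and 0.457 in stage II, and 0.215, 0.290 and 0.319 in stage III. All stage II libraries lay above all stage III libraries, while stage I lay below both in S1_1 and S1_2 and overlapped them through S1_3. The means were 0.178 ± 0.192, 0.420 ± 0.0504 and 0.275 ± 0.0539 (SD, n = 3), with 0.0677 in stage I without S1_3. The exact two-sided permutation test gave p = 0.1 for stage II against III (BH 0.3), 0.2 for I against II (BH 0.3) and 0.4 for I against III (BH 0.4), where 0.1 is again the smallest p.

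**Figure D4:**
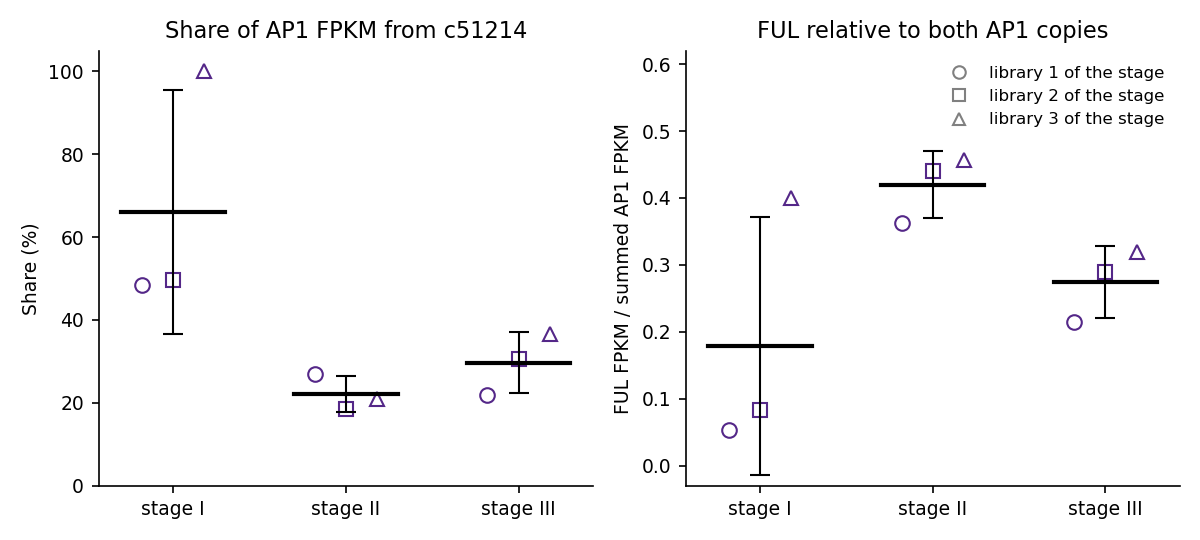
Share of summed AP1 FPKM from AP1 c51214 in percent (left) and FPKM of FUL c91035 relative to the summed AP1 copies (right) in each library, with the mean and SD (n = 3) per stage. S1_3, with no read of AP1 c128329, is at 100% and 0.40, apart from the other stage I libraries at 48.4% and 49.6% and at 0.0526 and 0.0827.

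The spread among replicates is given beside that of counting alone and the median of all transcripts. The coefficient of variation of FPKM in stage II was 36.1% for AP1 c128329, 62.7% for AP1 c51214 and 28.4% for FUL c91035, where counting alone gives 10.5%, 17.7% and 13.8%. In stage III it was 34.6%, 40.6% and 34.9%, where counting gives 7.0%, 9.98% and 10.7%. The medians over all transcripts tested were 20.3% in stage II and 16.4% in stage III, so each of the 3 lay above the median in these stages. In stage I the values were 89.7%, 19.6% and 62.9%, counting alone gives 38.8%, 30.2% and 65.5%, and the median of all was 36.2%. AP1 c51214 thus lay below the median there, and AP1 c128329, with its 0 in S1_3, was the only one above its counting error.

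In part, the transcripts shared the order of their replicates. S2_1 was the highest stage II library and S3_2 the lowest stage III library for 3 of 3, while the order of the stage I libraries and the highest stage III library differed between transcripts. S2_1 was also highest for 12 of the other 23 listed transcripts and for 45.1% of the transcripts tested from stage I to III, and S3_2 was lowest for 13 of 23 and for 28.4%.

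The other listed transcripts were grouped by their known role in Arabidopsis. Among the upstream regulators of AP1, FT c79621, the mobile flowering signal, rose from 0.72 ± 0.459 FPKM in stage I to 12.98 ± 3.95 in stage III (SD, n = 3; log2 fold change 4.06, SE 0.50, q = 0.00434). At stage II its libraries spread from 1.42 to 12.3 FPKM, and the first step did not pass (q = 0.0654). LFY c105452, the meristem identity factor that activates AP1, did not pass from stage I to III (log2 fold change 2.07, SE 1.0, q = 0.172). Its stage I values include the low FPKM of 0.05 in S1_3, against 1.95 and 2.52 in S1_1 and S1_2. UFO c10259, a partner of LFY, had no reads in stage I and 20.1 to 62.4 reads in each stage II library. The second UFO copy, UFO c105095, had 0 to 7 reads in stage I and 7.87 to 39.6 in stage II. It was not tested from stage I to II and did not pass from stage I to III (log2 fold change 3.26, SE 1.03, q = 0.0597). Upstream transcripts called higher numbered 1 of 3 tested from stage I to II and 2 of 4 from stage I to III, where 9.49% and 11.9% of all were.

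The organ identity transcripts, whose products join AP1 in MADS-box complexes, were called higher from stage I to III in 5 of 5, where 11.9% of all were. They come from the list of differentially expressed transcripts, so this count is not independent evidence. PI c42964 and SEP3 c231904 had no reads in stage I and passed the filter on low counts through stage III. SEP3 c49771 had a log2 fold change of 2.71 from stage I to II (SE 0.34, q = 0.00766) and 0.58 from stage II to III (SE 0.26, q = 0.309). Like FUL c91035 it had the larger first step (2.12 on the log2 scale, q = 0.0447). The other 4 organ identity transcripts did not pass that test, among them SEP3 c231904 (6.72, q = 0.0983). PI c9787 rose from stage II to III by 4.74 (SE 0.74, q = 0.0312), the step at which neither AP1 nor FUL passed in edgeR. The second PI copy, PI c42964, did not pass there (4.21, SE 1.15, q = 0.121). In all, 1 of the 5 organ identity transcripts was called at this step. Of the repressors of flowering, AGL15 c105115 fell by 2.08 on the log2 scale from stage I to II (SE 0.30, q = 0.00974), from 12.6 ± 4.41 to 3.29 ± 0.172 FPKM (SD, n = 3). AGL15 c133723 fell by 2.07 at the same step (SE 0.39, q = 0.0177). TEM2 c49765 did not pass from stage I to II (-1.39, SE 0.60, q = 0.147) and rose from stage II to III by 1.13 (SE 0.14, q = 0.0178). Its stage I FPKM was 23.4 in S1_3 but 5.73 and 5.66 in S1_1 and S1_2, near the 4.26 to 5.72 of stage II.

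Over all 23 other listed transcripts, 8 rose and 3 fell of 19 tested from stage I to II, 2 rose and 0 fell of 22 from stage II to III, and 11 rose and 3 fell of 22 from stage I to III. Of all transcripts tested, 9.49%, 0.734% and 11.9% were called higher, and 5162 of 64662, 483 of 64971 and 6730 of 65124 lower. The list was drawn as differentially expressed in these libraries, so its counts are not independent evidence. The median log2 fold changes of the 23 were 1.37, 0.51 and 1.60. Those of the AP1 and FUL transcripts were 3.38, 1.35 and 4.78, and the medians over all transcripts tested were -0.02, -0.01 and 0.02.

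Likeness of pattern was measured as the root mean square difference of log2 CPM over the 9 libraries, with each transcript centred on its mean (prior count 2). Of the listed transcripts, FUL c91035 was most like UFO c10259 (0.46, rank 31 of 68173) and SEP3 c49771 (0.68, rank 258). AP1 c128329 was most like UFO c10259 (0.80, rank 236) and UFO c105095 (0.98, rank 803), and AP1 c51214 most like ATVGT1 c47156 (0.76, rank 863) and UFO c105095 (0.77, rank 972). The median difference to all transcripts was 2.21 for AP1 c128329, 1.34 for AP1 c51214 and 1.94 for FUL c91035. These neighbours changed with the setting. ATVGT1 c47156 was the nearest listed transcript to AP1 c51214 only on log2 CPM over all 9 libraries. Its rank was 531 on log2(FPKM + 1), 3121 on stage means and 1881 without S1_3. On log2(FPKM + 1), UFO c10259 was the nearest listed transcript to AP1 c51214 (rank 92). SEP3 c231904 was the nearest to AP1 c128329 on that scale (rank 50), with UFO c10259 at rank 946. FUL c91035 had rank 951 by likeness to AP1 c128329, but it was the nearest listed transcript to it on stage means (rank 97) and without S1_3 (rank 137). Without S1_3, UFO c105095 had rank 2200 by likeness to AP1 c128329 and rank 69 by likeness to AP1 c51214. By likeness to AP1 c51214, AP1 c128329 had rank 35007 with S1_3 and 748 without it. UFO c10259 was the nearest listed transcript to FUL c91035 with and without S1_3, and AP1 c128329 was the nearest on stage means (rank 227). The transcript nearest to AP1 c128329 over the 9 libraries was the unnamed i1_LQ_HNbud_c251048/f1p2/1945 (0.33). It also had no read in S1_3, which the distance itself favours, and without S1_3 another transcript was nearest.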

How the data were processed

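Buds at 3 stages were sequenced in 3 libraries each. The authors cleaned the reads (ng_QC), aligned them to polished long-read transcripts (bowtie2) and counted fragments per transcript (RSEM). The study describes a non-redundant reference of fewer transcripts than the tables list, so which set was mapped to is not settled here. Tool versions are not given in the sources used here. The deposited tables give the expected count of each transcript, which is fractional and not normalised, and the FPKM the authors made from it. They pair no identifier with a gene name, so names follow the study's list.

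Expected counts were rounded and tested with edgeR 4.0.16 (R 4.3.3; filterByExpr with a minimum count of 10 and total of 15, TMM, quasi-likelihood test, Benjamini-Hochberg adjustment over all transcripts tested) on the 6 libraries of each comparison, or on all 9 for the difference between steps. The SE was derived from the fold change and the F statistic (size of log2 fold change / root F). Levels, shares and ratios were computed on FPKM with NumPy 2.4.6, pandas 2.3.3 and SciPy 1.17.1, which gave the exact tests and 95% intervals, and plots were drawn with Matplotlib 3.10.9. The edgeR fit was also run on counts simulated from its own means and dispersions, with planted fold changes. That cannot show how the fit handles a deviating library such as S1_3. Alternatives were DESeq2 1.42.0, limma 3.58.1 on log2(FPKM + 1) where 3 libraries reached an FPKM of 1, other normalisation, filter and threshold settings, a replicate block, and each library left out.

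The transcripts named are the 3 of AP1 and FUL, the other listed transcripts that act upstream of them, in organ identity or as repressors, and those nearest in pattern. The members and lists were chosen with earlier results of these data known.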

Additional observations from a re-analysis of the deposited data

How the results depend on the processing

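No fold change reversed in any alternative. Of the 3 transcripts, the number called higher from stage I to II was 2, and it was 1 with no filter, 0 at a q value under 0.001, and 1 to 2 with each library left out. From stage II to III it was 0, and 2 in DESeq2. From stage I to III it was 3, and 0 at a q value under 0.001 and 2 to 3 with each library left out. For the difference between steps it was 1, and 0 in limma, 0 with no filter and 0 to 1 with each library left out. The share reached at stage II was 37.4% for AP1 c128329 on FPKM, 63.1% on log2(FPKM + 1) and 73.4% on log2(FPKM + 0.1), and for FUL c91035 it was 53.0% on FPKM and 80.9% on log2(FPKM + 0.1), since a log scale weights the first step more.

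The labels do not tie the replicate numbers to a shared plant or day. Deviations from the stage means correlated at -0.13 to 0.06 between libraries of the same number and at -0.10 to 0.13 between those of different numbers. Such low values cannot exclude a small effect of a shared plant or day. With the replicate number as a block, the transcripts called were 0 from stage I to II, 0 from II to III, 2 from I to III and 0 for the difference between steps. Of all transcripts it called 0, 5, 3978 and 874 higher.

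Depth limits stage I, where the transcripts had 0 to 13 reads in a library. AP1 c51214 was not tested by limma from stage I to II, as it was under the FPKM filter. With 1 library left out, the number of all transcripts called higher was 1445 to 9396 from stage I to II (6136 with all), 38 to 458 from II to III (477) and 2979 to 11280 from I to III (7758), and the stage with 2 libraries was assumed to vary like the other. In limma the median log2 difference of all transcripts was 0.17 from stage I to II, against -0.02 in edgeR.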
